A study of Mus musculus with 2 samples.

Results

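The genes described here are 10 genes of oxidative stress defence and glutathione metabolism, Hmox1, Nqo1, Gclm, Gclc, Slc7a11, Txnrd1, Srxn1, Gpx4, Prdx1 and Txn1, out of 32285 genes counted. They are a named list whose rule uses no measured value, drawn up with earlier results of these data known. Their levels were read in 5 kinds of cell of the mouse RM-1 tumor, namely cancer cells, macrophages, monocytes, neutrophils and T cells, with and without enzalutamide (ENZ), a drug that blocks the androgen receptor.

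RM-1 is a mouse prostate cancer line that resists ENZ without prior selection. Its cells were grown as tumors in the prostates of C57BL/6 mice, labelled WT, that received either vehicle (the control group) or ENZ, and no age is given in the sources used here. Immune cells were enriched and stained for CD45 during sorting, so the shares of cell kinds are not those of the tumor. Each condition is 1 droplet-based single-cell library, so no difference between them has a replicate check, no test was made, and each interval below is a 95% interval that covers counting error only. Where a pair of values is given, the control comes first and ENZ second.

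These genes belong to linked systems. The transcription factor NRF2 (Nfe2l2), held down by KEAP1 and opposed by BACH1, binds antioxidant response elements near many of them when cells meet oxidants or electrophiles. Cystine taken up by the SLC7A11 exchanger supplies cysteine for glutathione, which GPX4 uses to reduce lipid peroxides, while thioredoxin and its reductase keep peroxiredoxins and other protein thiols reduced. Heme oxygenase, which breaks down heme, is a familiar product of macrophages.

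The core letters of the antioxidant response element, TGACNNNGC, were looked for on both strands of RefSeq promoter windows of 300 bases, from 250 before to 50 after a transcript start, on GRCm38.p6. Of the 8 listed genes with a window, 4 held a match, against 14.0% of 27025 genes in the table. These 8 genes had 13 windows, of which 4 held a match, against 12.4% of all 32851 windows. A gene with several windows has more places for a match. Nqo1, Slc7a11, Gpx4 and Txn1 held none, and Hmox1 and Gclc had no window. The sites are shown because they are the sequence feature that NRF2 targets share, and each is printed on the plus strand with the match in capitals, where it reads as GCNNNGTCA.
Gclm: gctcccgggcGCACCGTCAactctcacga
Txnrd1: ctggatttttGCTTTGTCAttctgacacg
Srxn1: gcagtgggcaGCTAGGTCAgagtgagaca
Prdx1: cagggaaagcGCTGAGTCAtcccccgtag

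The Gclm stretch is chr3:122245413-122245441, upstream of the gene, and its match begins 134 bases before the RefSeq start. The Txnrd1 stretch, chr10:82859104-82859132, lies in an intron of the GENCODE gene and its match begins 92 bases before the start of a shorter transcript. The Srxn1 stretch, chr2:152105542-152105570, lies in an exon, with the match 28 bases after the start. The Prdx1 stretch, chr4:116685456-116685484, is upstream, 133 bases before the start, and its match overlaps the AP-1 letters TGANTCA, which 7.81% of all windows hold. A match is a run of letters and not a measured binding site.

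The control library held 170830346 UMIs and the ENZ library 162030149. Barcodes with at least 1000 UMIs and at most 20% mitochondrial UMIs numbered 12253 and 10271, with medians of 6376 and 8127 UMIs. Marker gates, each a minimum of raw UMIs of named genes, gave 4006 control and 4469 ENZ cancer cells, 1200 and 532 macrophages, 625 and 1128 monocytes, 768 and 289 neutrophils, and 417 and 606 T cells. A total of 407 control and 387 ENZ barcodes met several gates and were left out of all of them, 4830 and 2860 met no gate, and no doublet caller was run. The 2 libraries shared 39 kept barcodes, 0.318% of the control and 0.380% of the ENZ barcodes, and leaving these out, an alternative added after the data had been seen, moved none of the counts given below by over 1.5 times.

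Markers that the gates did not use were read as a check. Among cancer cells Krt8, a keratin, stood at 434 and 506 CPM (counts scaled to 1000000 UMIs per gate), but the epithelial marker Epcam was near 0, at 3.07 and 2.89 CPM, and the collagen gene Col3a1 stood at 525 and 522 CPM. Of 5 macrophage markers in the macrophage gate, Mrc1 stood at 581 and 1265 CPM, Csf1r at 292 and 344 CPM, Adgre1 at 125 and 142 CPM, Cd68 at 235 and 219 CPM and Apoe at 6723 and 4785 CPM, and their summed level was 7957 and 6754 CPM. Macrophage markers in the T cell gate summed to 218 and 81.9 CPM, led by Apoe at 153 and 51.6 CPM, and none of the 5 was at 0. The T cell gate also held Gzma, a granzyme shared with NK cells, at 401 and 97.4 CPM, and the mast cell gene Cpa3 at 0.491 and 61.6 CPM. The part of such differences in make-up in the results below was not tested.

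The libraries also differed in RNA content in every gate. Ribosomal protein genes took 22.2% and 20.6% of UMIs in cancer cells, and 18.1% and 13.5% in macrophages. Transcripts that resemble ribosomal RNA, led by Gm42418, took 1.48% and 3.62% in cancer cells, and 3.93% and 9.88% in macrophages. The ratios of the 10 genes keep their direction when both classes and mitochondrial genes are left out of the total, except Gclm in cancer cells and Hmox1 in monocytes, whose paired levels lie within counting error of each other.

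Among the 5 kinds of cell, the 10 genes fell into different orders. Slc7a11, the light chain of the cystine/glutamate exchanger, had the widest range, being highest in neutrophils and lowest in T cells in both libraries. The gene spans chr3:49892526-50443614 on the minus strand and overlaps the antisense gene Gm37854. Its level was 1613 CPM (1555 to 1672) in control neutrophils and 1553 CPM (1461 to 1651) in ENZ neutrophils, and the level in neutrophils was 76.5 and 92.1 times that in T cells. In control cells monocytes (201 CPM) and macrophages (200 CPM) did not differ beyond their intervals, and cancer cells (47.1 CPM) stood above T cells (21.1 CPM).

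Single barcodes gave the same picture of Slc7a11. With each barcode thinned to 1000 UMIs, 66.8% of control and 60.9% of ENZ neutrophils had at least 1 Slc7a11 UMI. In T cells, the gate with the lowest level, the shares were 1.20% and 0.990%. Before thinning the shares were 81.6% and 78.2% in neutrophils (median depths of 2070 and 2139 UMIs), and 5.76% and 2.81% in T cells (3876 and 3991.5 UMIs). The level of Slc7a11 in near-empty barcodes of at most 100 UMIs, a measure of free RNA, was 92.1 and 65.9 CPM. The part of free RNA in the lower levels of cancer cells and T cells was not tested.

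**Figure D1:**
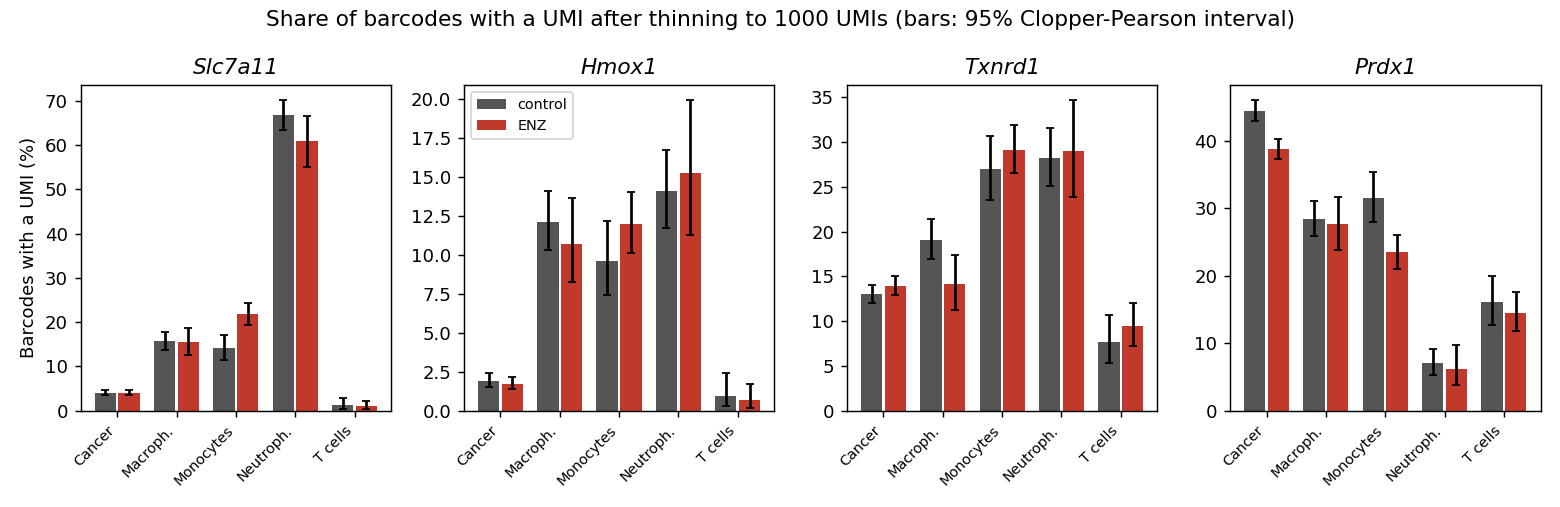
Share of barcodes (%) with at least 1 UMI of 4 of the genes, after each barcode was thinned to 1000 UMIs, in each gate of the control (gray) and ENZ (red) libraries, with 95% Clopper-Pearson intervals. Slc7a11 was found in 66.8% and 60.9% of neutrophils and Prdx1 in 44.4% and 38.8% of cancer cells, while Hmox1 was near 0 in T cells.

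Hmox1, the inducible heme oxygenase, was a gene of the 3 myeloid gates. In the control library neutrophils (182 CPM) and macrophages (168 CPM) did not differ beyond their intervals, monocytes followed at 138 CPM, and cancer cells (22.4 CPM) and T cells (7.36 CPM) were below the near-empty level of 59.0 CPM. In the ENZ library macrophages came first, at 232 CPM, and neutrophils (152 CPM) and monocytes (135 CPM) did not differ beyond their intervals. The gene lies at chr8:75093621-75100589.

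The peroxide-reducing genes were highest in cancer cells. Prdx1, a cytosolic peroxiredoxin that reduces hydrogen peroxide, was lowest in neutrophils, and the level in cancer cells exceeded that by 8.47 and 6.62 times. Gpx4, the glutathione peroxidase that protects membrane lipids, was likewise highest in cancer cells (501 and 448 CPM) and lowest in neutrophils (117 and 118 CPM). Txn1, thioredoxin, was highest in cancer cells at 1096 and 968 CPM, but neutrophils were second, at 779 and 845 CPM, and macrophages last, at 423 and 348 CPM. Near-empty barcodes held these 3 genes at levels of the same order as those of cancer cells, with 520 CPM of Prdx1, 507 CPM of Gpx4 and 908 CPM of Txn1 in the control library.

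Txnrd1, the cytosolic thioredoxin reductase, ranged by 3.07 and 3.65 times. It was highest in neutrophils and monocytes, which did not differ beyond their intervals in either library, and lowest in T cells. Reads of Txnrd1 may be shared with Eid3, which lies within it on the same strand.

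The remaining members were low. Nqo1, a quinone reductase, stood at 11.2 CPM in control cancer cells and at 0.981 to 2.50 CPM in the control immune gates. Gclm, the modifier subunit of glutamate-cysteine ligase, and Srxn1, sulfiredoxin, which repairs overoxidized peroxiredoxins, were highest in cancer cells in the control, and their levels in the 4 control immune gates did not differ between neighbours in the order beyond their intervals. Gclc, the catalytic subunit of the ligase, was instead highest in T cells, at 57.4 and 78.5 CPM.

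**Figure D2:**
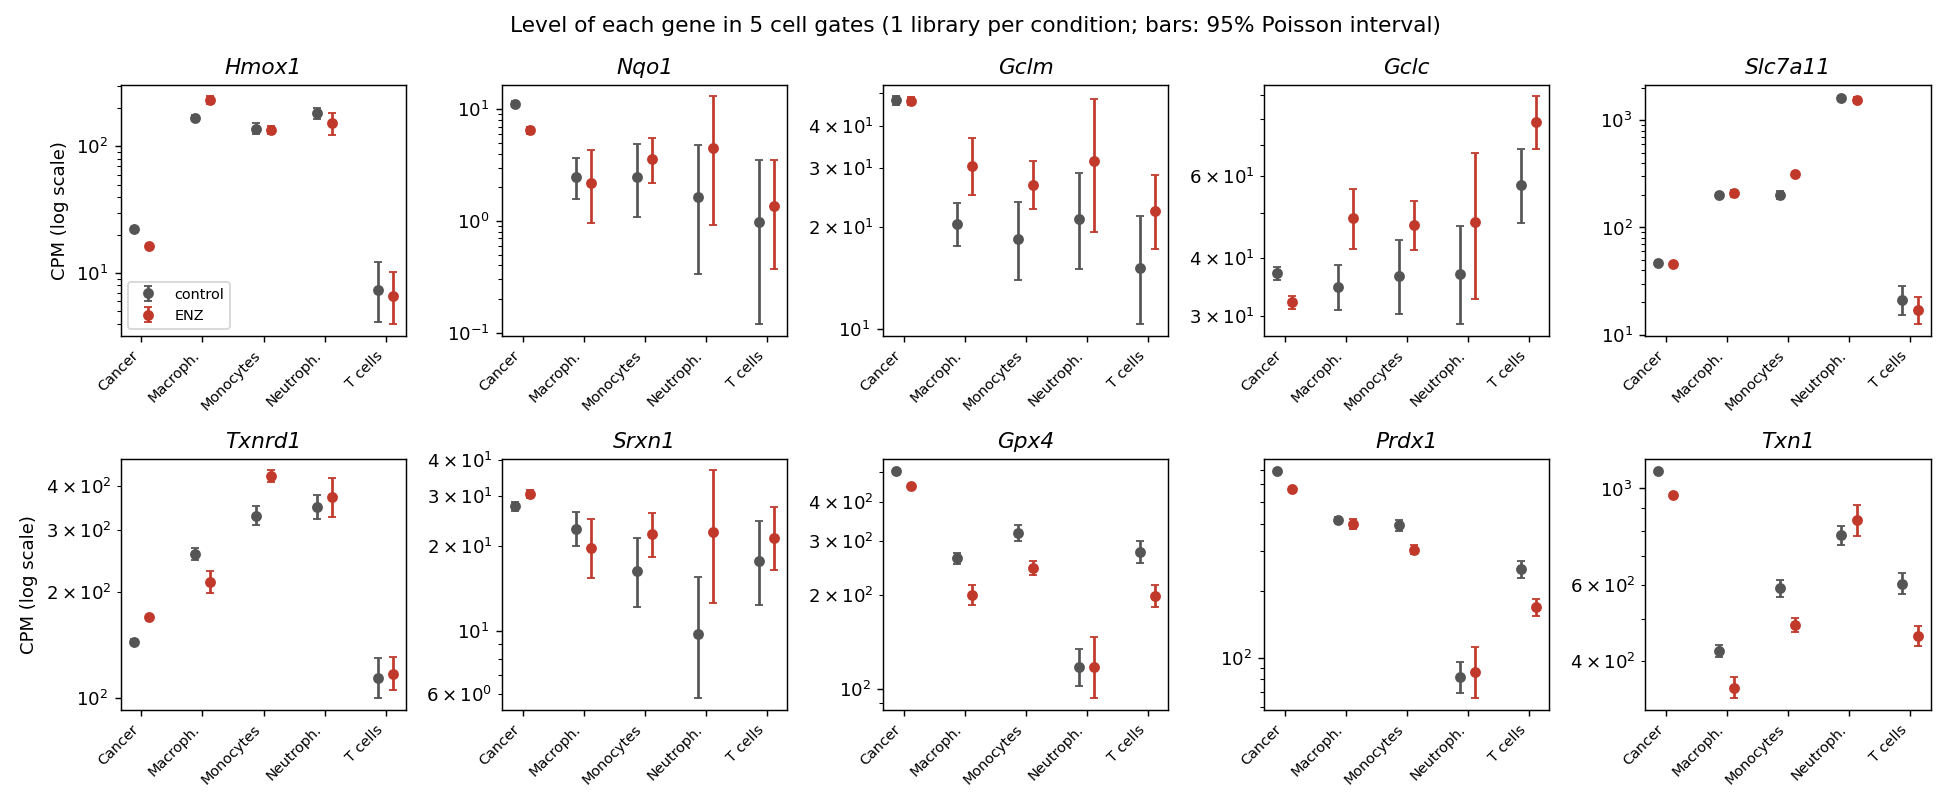
Level of each gene (CPM of summed UMIs, log axis, a scale of its own in each panel) in 5 gates of the control (gray) and ENZ (red) libraries, with 95% Poisson intervals. Slc7a11 is highest in neutrophils, at 1613 and 1553 CPM, Gpx4, Prdx1 and Txn1 are highest in cancer cells, and Gclc is highest in T cells.

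Across these 10 values, 5 gates in 2 libraries that share depth and composition within a library, the genes whose log2(CPM + 10) was most like that of Slc7a11, by Pearson's r over 5632 genes, were Cln3 (r = 0.994), Baz2b (r = 0.991) and Ppp1r15a (r = 0.990). For Hmox1 they were Ninj1 (r = 0.981), Plekho2 (r = 0.977) and Lrrc25 (r = 0.972). For Gpx4 they were Psmb4 and Psma7 (each r = 0.989) and Atp5f1 (r = 0.986).

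The second question was whether the genes differed between ENZ and control in each kind of cell. A gene was called higher or lower when its ratio passed 1.5-fold with at least 50 CPM in either library. By that rule 1 gene in 1 gate was called, Slc7a11 in monocytes, and the share of all genes called is given at each gate. Intervals exclude 1 for 88.7% of all tested genes in cancer cells, the deepest gate, and for 36.6% in neutrophils, so an interval that excludes 1 is common here.

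In cancer cells 4 of the 10 genes reached 50 CPM and none passed 1.5-fold, where 0.412% of 3642 genes were called higher and 0.906% lower. Txnrd1 was at 144 and 170 CPM (ratio 1.18, 1.15 to 1.20). Prdx1 was at 691 and 573 CPM (ratio 0.829, 0.820 to 0.838), and Gpx4 (0.895) and Txn1 (0.883) were also lower in the ENZ library. The median log2 ratio of these 4 genes was -0.17, against 0.05 over all genes tested.

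Of the 6 genes below 50 CPM in cancer cells, Nqo1 differed most, at 11.2 CPM (10.5 to 11.9) against 6.53 CPM (6.07 to 7.02) under ENZ, which is a ratio of 0.584 (0.532 to 0.641). Its near-empty levels, 8.88 and 4.96 CPM, differed in the same direction, and the part of free RNA in the result was not tested. The ratio was below 1 in dividing (0.617) and non-dividing (0.535) cancer cells, which were split by Mki67 and Top2a, and in those high (0.612) and low (0.417) in keratin UMIs.

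Hmox1 in cancer cells was at 22.4 and 16.3 CPM (ratio 0.729, 0.686 to 0.776), and its level in keratin-low cells differed less (0.939, 0.831 to 1.06). The 5 macrophage markers in the cancer gate summed to 72.6 and 43.4 CPM, with Apoe at 52.0 and 25.8 CPM and none at 0, and their part in the Hmox1 ratio was not tested. Of the ligase subunits, Gclc was at 37.0 and 32.1 CPM (ratio 0.867, 0.828 to 0.908) and Gclm at 47.4 CPM in both libraries (ratio 0.998, 0.960 to 1.04). The Gclc ratio was 0.950 (0.898 to 1.0) in keratin-high and 0.717 (0.659 to 0.780) in keratin-low cells. Within barcodes of 3000 to 15000 UMIs the log2 ratio of Gclc was -0.63 in place of -0.21, past 1.5-fold, and that of Gclm was -0.19. The Gclc value is not a call, since Gclc stayed under 50 CPM. Under that setting 1.03% of genes tested were past 1.5-fold higher and 1.60% lower. Slc7a11 had a ratio of 0.967 (0.929 to 1.01) and Srxn1 one of 1.11 (1.05 to 1.16). Over all 10 genes, 2 intervals lay above 1, 6 lay below it and 2 held 1.

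Immediate early and heat shock genes, which can respond to tissue handling, also differed between the libraries in cancer cells. All 12 of them were lower in the ENZ library, 6 by over 1.5-fold, with a median log2 ratio of -0.57, led in size by Hspa1a (168 and 89.9 CPM) and Fos (1002 and 538 CPM). Their part in the ratios of the 10 genes was not tested.

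In macrophages 6 genes reached 50 CPM and none passed 1.5-fold, where 9.43% of 3478 genes were called higher and 4.69% lower. Hmox1 was at 168 CPM (160 to 176) without and 232 CPM (217 to 249) with ENZ, for a ratio of 1.38 (1.27 to 1.51). Its log2 ratio of 0.47 was 0.59, past 1.5-fold, as the mean of each barcode's CPM, and 0.24 with barcodes of several gates kept. After thinning, 12.1% of control and 10.7% of ENZ macrophages (46.3% and 44.4% before it) had a Hmox1 UMI, so the share of cells does not follow the level and no order is read from it.

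The Hmox1 ratio differed between macrophages split by Mmp12 UMIs. Among macrophages with fewer than 2 UMIs of Mmp12, an elastase of macrophages, it stood at 165 and 267 CPM (ratio 1.62, 1.46 to 1.80), past 1.5-fold, where 9.30% of genes tested were called higher and 4.47% lower. Among those with at least 2 Mmp12 UMIs it stood at 171 and 163 CPM (ratio 0.950, 0.808 to 1.11). The intervals do not overlap, but they count UMIs and leave out the spread among cells, and the difference has no replicate check. Over the whole macrophage gate, the 10% of barcodes richest in Hmox1 carried 53.0% and 61.1% of its UMIs. Between the same Mmp12 classes Slc7a11 had the reverse order, with a ratio of 0.843 (0.743 to 0.953) without and 1.43 (1.27 to 1.61) with Mmp12. Slc7a11 was also past 1.5-fold in macrophages with no UMI of the mannose receptor gene Mrc1 (305 and 89 barcodes), at 248 and 393 CPM (ratio 1.58, 1.30 to 1.91), where 14.8% of genes tested were called higher and 8.47% lower. Gclc was past it in the same cells, at 26.7 and 64.1 CPM (ratio 2.40, 1.40 to 4.04), from 44 and 24 UMIs. The median depths of these barcodes were 5005 and 3452 UMIs, and Mrc1 was higher in ENZ macrophages over the whole gate. Both bear on which barcodes hold no Mrc1 UMI, and their part in these ratios was not tested. Over the whole macrophage gate Slc7a11 was at 200 and 207 CPM (ratio 1.04, 0.952 to 1.13).

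The subunits of glutamate-cysteine ligase were below 50 CPM over the whole macrophage gate and within 1.5-fold. Gclc was at 34.6 and 48.7 CPM (ratio 1.41, 1.17 to 1.70) and Gclm at 20.4 and 30.4 CPM (ratio 1.49, 1.17 to 1.89), and the log2 ratio of Gclm, 0.57, was 0.10 with gate minimums doubled. With a minimum of 20 CPM, 13% of genes in this gate were past 1.5-fold higher and 4.15% lower. Gpx4 was at 263 and 201 CPM (ratio 0.764, 0.702 to 0.830), Txn1 had a ratio of 0.822 and Txnrd1 one of 0.831 (0.765 to 0.901), while the interval of Prdx1 held 1 (0.960, 0.903 to 1.02). With barcodes of several gates kept, the log2 ratio of Txnrd1 turned from -0.27 to 0.03 and that of Gclc was 0.68, past 1.5-fold.

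The median log2 ratio of the 6 macrophage genes was -0.16, against 0.11 over all genes, so a scaling that sets that median to 0 lowers every log2 ratio by 0.11. The heat shock gene Hspa1a was lower in ENZ macrophages, at 6850 and 2863 CPM, the immediate early gene Fos was higher, at 290 and 449 CPM, and of the 4 monocyte markers F13a1 was higher, at 179 and 524 CPM, and Plac8 lower, at 380 and 194 CPM, with a summed level of 702 and 904 CPM. Markers of other cells also differed in this gate, with 3 cancer cell markers summing to 23.6 and 46.5 CPM (Krt8 at 15.3 and 32.9 CPM), 3 NK cell markers to 36.8 and 7.19 CPM (Gzma at 32.4 and 2.77 CPM) and the mast cell gene Cpa3 at 20.3 and 0 CPM. Their part in the ratios was not tested.

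In monocytes Slc7a11 was at 201 CPM (186 to 217) without and 317 CPM (302 to 332) with ENZ, for a ratio of 1.58 (1.44 to 1.73), the only called value among the 6 genes tested there, where 6.69% of 3230 genes were called higher and 5.29% lower. After thinning, 14.1% of control and 21.7% of ENZ monocytes had a Slc7a11 UMI (40.6% and 52.3% before it, at median depths of 4647 and 4803.5 UMIs). The interval of its ratio reaches below 1.5, and its log2 ratio of 0.66 ranged from 0.54, with barcodes of several gates kept, to 0.78, with gate minimums doubled. The log2 ratio with those barcodes kept is under 1.5-fold, which ends the call.

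Txnrd1 in monocytes was at 330 and 428 CPM (ratio 1.30, 1.20 to 1.39), within 1.5-fold. The ligase subunits, both under 50 CPM and within 1.5-fold, had ratios of 1.29 (1.03 to 1.61) for Gclc and 1.45 (1.07 to 2.0) for Gclm, where 8.56% of genes were past 1.5-fold higher and 6.51% lower with a minimum of 20 CPM. Gpx4 was at 317 and 245 CPM (ratio 0.772, 0.711 to 0.838), Prdx1 at 394 and 306 CPM (0.777, 0.722 to 0.837) and Txn1 at 589 and 485 CPM (0.822, 0.775 to 0.873). Hmox1 was level, at 138 and 135 CPM (0.976, 0.867 to 1.10).

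Of the 5 macrophage markers in the monocyte gate, 4 were higher in the ENZ library, Mrc1 at 71.8 and 152 CPM, Csf1r at 190 and 300 CPM, Adgre1 at 71.2 and 124 CPM and Apoe at 829.7 and 922 CPM, while Cd68 was lower, at 185 and 149 CPM. They summed to 1348 and 1647 CPM, and none was at 0. The 4 monocyte markers summed to 4087 and 2908 CPM, with Plac8 at 3607 and 2302 CPM and F13a1 at 176 and 306 CPM. Of the 12 immediate early and heat shock genes, Fos (264 and 146 CPM) and Egr1 (69.6 and 44.5 CPM) were lower by over 1.5-fold. Markers of other cells differed too, with sums of 38.1 and 76.9 CPM for NK cells and 58.1 and 80.5 CPM for endothelial cells. Neutrophil markers summed to 411 and 443 CPM. Those of T cells (22.8 and 16.4 CPM) and dendritic cells (17.5 and 11.9 CPM) were lower in the ENZ library. The part of these differences in the Slc7a11 ratio was not tested.

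In neutrophils no member passed 1.5-fold among 6 tested, where 8.77% of 2748 genes were called higher and 8.22% lower. Slc7a11 had a ratio of 0.963 (0.897 to 1.03), Txnrd1 one of 1.07 (0.918 to 1.24) and Txn1 one of 1.08 (0.981 to 1.20). Hmox1 was at 182 and 152 CPM (ratio 0.835, 0.663 to 1.05), and its log2 ratio of -0.26 was -1.39 in barcodes of 3000 to 15000 UMIs, past 1.5-fold, and 0.09 with gate minimums doubled. With barcodes of several gates kept, Hmox1 (-0.82) and Prdx1 (-0.64) were past 1.5-fold on the lower side. The 1 interval that excluded 1 belonged to Srxn1, at 9.79 and 22.4 CPM (ratio 2.29, 1.07 to 4.80), which rests on 18 and 15 UMIs, beside a near-empty level of 22.2 and 29.0 CPM. Of the immediate early and heat shock genes in neutrophils, Egr1 (582 and 384 CPM) and Dnajb1 (140.3 and 91.0 CPM) were lower by over 1.5-fold, and their part was not tested.

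In T cells 5 genes reached 50 CPM and none passed 1.5-fold, where 5.41% of 3441 genes were called higher and 4.36% lower, but their median log2 ratio, -0.40, was the lowest of the 5 gates, against 0.07 over all genes. Of the immediate early and heat shock genes there, Fos (61.8 and 32.4 CPM) and Fosb (ratio 0.661) were lower by over 1.5-fold. The part of these genes and of the lower macrophage markers was not tested. Prdx1 was at 249 CPM (228 to 272) without and 168 CPM (154 to 184) with ENZ, for a ratio of 0.676 (0.596 to 0.766), just inside the limit. It was past the limit, with log2 ratios from -0.72 to -0.59, with gate minimums doubled, without the 5% of barcodes with the most UMIs, with median-of-ratios scaling and with free RNA subtracted at 5% or 10%. With barcodes of several gates kept, the genes past it were instead Hmox1 and Slc7a11, both lower. Gpx4 (0.723, 0.643 to 0.814) and Txn1 (0.759, 0.702 to 0.821) also had ratios below 1, within 1.5-fold. Gclc was at 57.4 and 78.5 CPM (ratio 1.37, 1.09 to 1.72).

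The Prdx1 ratio was below 1 in both classes of T cell that could be gated, by Cd8a or Cd8b1 without Cd4, or Cd4 without them. In CD8 T cells (54 control and 94 ENZ barcodes) it was at 346 and 177 CPM (ratio 0.512, 0.378 to 0.692), past 1.5-fold, where 15.6% of genes tested were called higher and 14.8% lower. In CD4 T cells (70 and 198 barcodes) it was at 244 and 166 CPM (ratio 0.680, 0.529 to 0.880). Gclc was past 1.5-fold in CD4 T cells, at 30.2 and 53.2 CPM from 12 and 58 UMIs, where 11.3% of genes tested were called higher and 9.75% lower, with an interval that held 1 (ratio 1.76, 0.936 to 3.61).

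**Figure D3:**
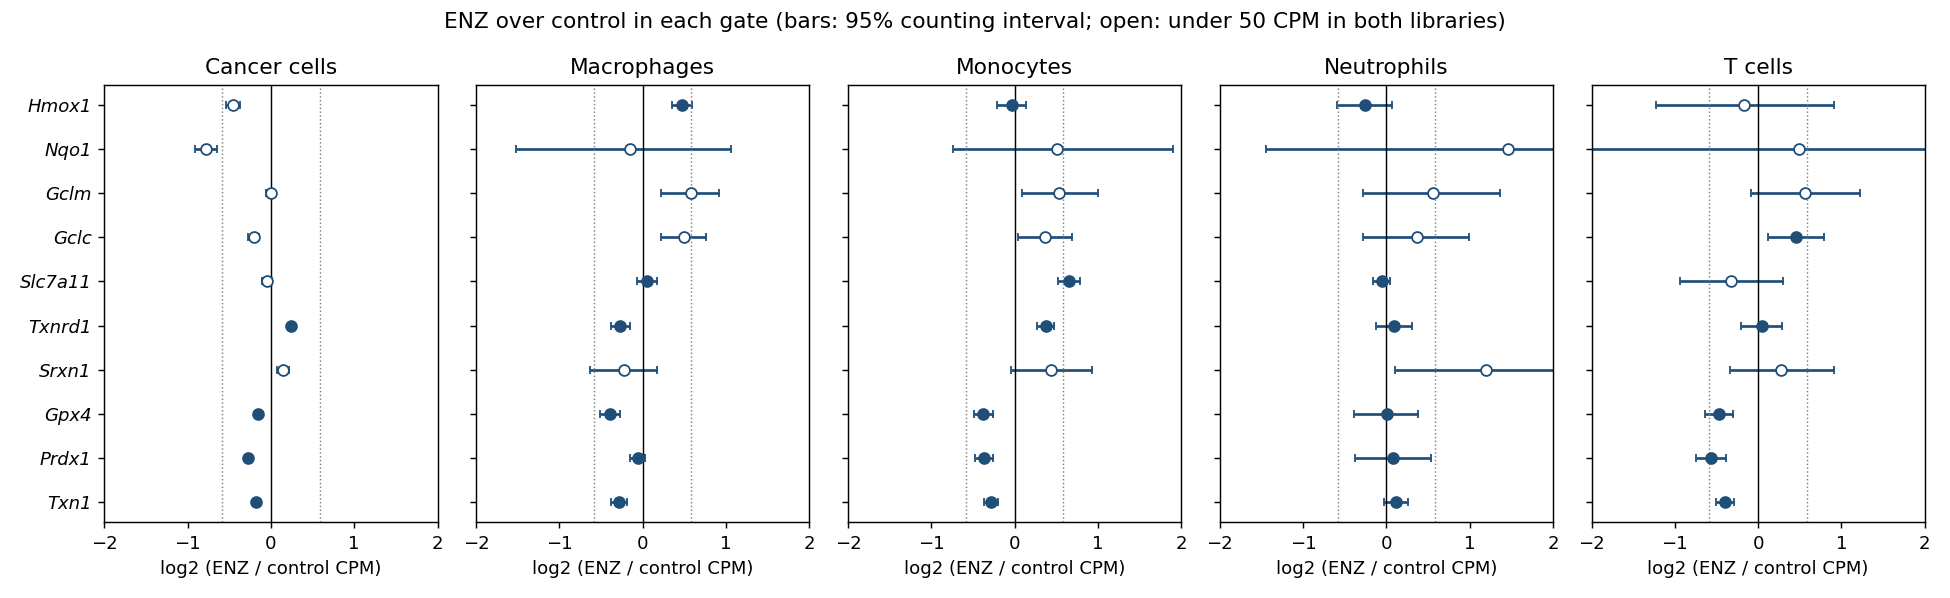
Log2 ratio of ENZ over control CPM for each gene (rows) in each gate (panels), with 95% counting intervals. Filled points have at least 50 CPM in either library, open points do not, dotted lines mark 1.5-fold and intervals that leave the axis are clipped. Slc7a11 in monocytes, at 0.66, is the one filled point past a dotted line.

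The ratios of a gene were not alike among kinds of cell. Gpx4 and Txn1 had ratios below 1 in cancer cells, macrophages, monocytes and T cells, with intervals that exclude 1, and intervals that held 1 in neutrophils. The ratio of Gclc was above 1 in all 4 immune gates, with intervals that exclude 1 in 3 of them, and below 1 in cancer cells. These gates share 1 library per condition and are not replicates of one another.

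A wider list of 72 other genes of the same systems was read beside them. In cancer cells 35 of the 72 reached 50 CPM and none passed 1.5-fold, where 0.412% of all genes were called higher and 0.906% lower. Their median log2 ratio was -0.12, against 0.05 over all genes tested. At the low end were the glutathione transferases Mgst3 (54.3 and 37.5 CPM, ratio 0.691) and Gstm1 (ratio 0.698), and at the high end was the exporter gene Abcc1 (55.9 and 78.9 CPM, ratio 1.41); these 3 were named after their values had been seen. Of the regulators of the response, also named outside the rule for naming genes, Nfe2l2 was at 220 and 212 CPM (ratio 0.963), Bach1 at 58.6 and 65.9 CPM (1.12) and Keap1 at 31.1 and 32.1 CPM (1.03).

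In macrophages 33 genes of the list were tested, 2 were called higher and 3 lower, beside 9.43% and 4.69% of all genes there, with a median log2 ratio of 0.04. Idh1, a cytosolic source of NADPH (ratio 1.64, 1.38 to 1.95), and Mafg, a small MAF partner of NRF2 (1.57, 1.31 to 1.86), were higher. The 3 lower genes were the biliverdin reductase Blvrb (198 and 115 CPM, ratio 0.580, 0.521 to 0.646), the peroxiredoxin Prdx2 (0.657) and the ferritin heavy chain Fth1 (0.662). Blvrb and Fth1 were listed as heme and iron genes, of which 5 were tested in macrophages, 2 were called lower and 0 higher. Hmox1 had a ratio above 1 in the same cells but was not called. Blvrb and Fth1 are named because they were called, so they do not stand for the other heme and iron genes.

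In monocytes 28 were tested, 4 were called higher and 1 lower, beside 6.69% and 5.29% of all genes there. Ptgs2, an inducible cyclooxygenase, was at 431 and 920 CPM (ratio 2.13, 2.01 to 2.26), followed by Maff, another small MAF gene (1.65), and Abcc1 (1.53). The lower gene was Taldo1, a pentose phosphate enzyme (628 and 419 CPM, ratio 0.666). Nfe2l2 was at 425 and 453 CPM in the same cells (ratio 1.07, 0.999 to 1.14).

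In neutrophils 28 were tested, 2 were called higher and 1 lower, beside 8.77% and 8.22% of all genes there, with Pgd, a pentose phosphate enzyme (ratio 1.87, 1.32 to 2.63), and Sod2, the mitochondrial superoxide dismutase (1.55, 1.25 to 1.91), higher and the ferritin light chain Ftl1 lower (3870 and 2485 CPM, ratio 0.642). In T cells 26 were tested, none was called higher and 4 were lower, beside 5.41% and 4.36% of all genes there, among them the peroxiredoxin Prdx5 (0.605), Taldo1 (0.608) and the mitochondrial thioredoxin Txn2 (0.626). The list median in T cells was -0.19.

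**Figure D4:**
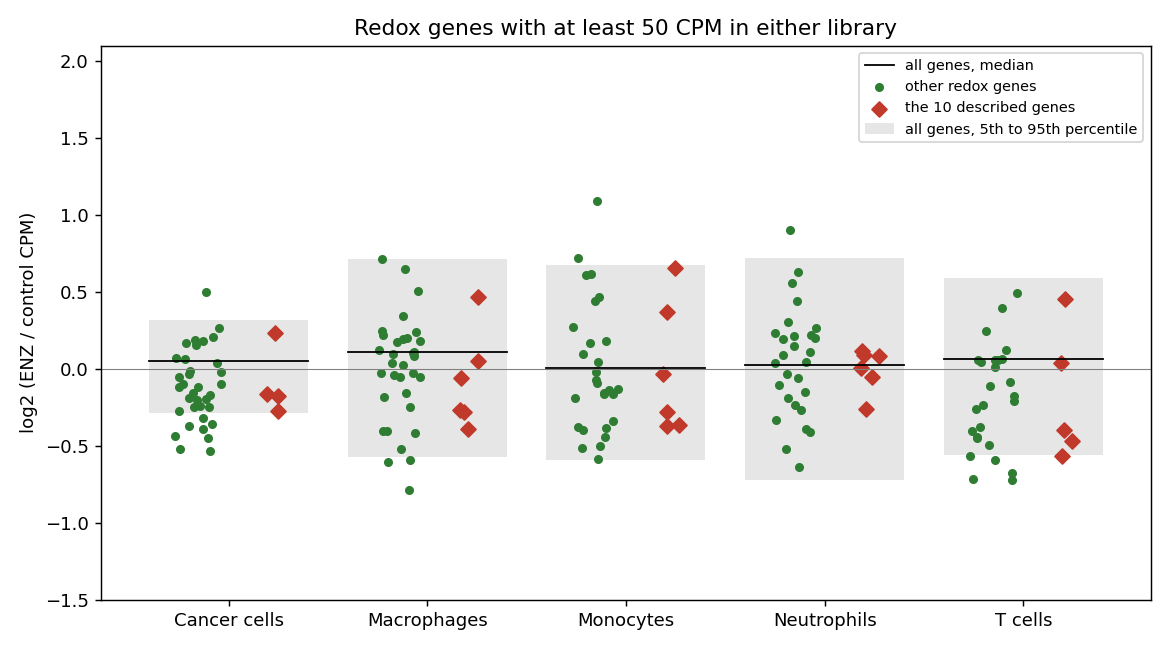
Log2 ratio of ENZ over control CPM for genes that reached 50 CPM in 1 library or both, by gate, for the 10 described genes (red diamonds) and 72 other redox genes (green points), beside the median (line) and the 5th to 95th percentile (gray) of all genes. In T cells 3 of 5 red diamonds lie below -0.3, and in neutrophils the 6 diamonds lie between -0.26 and 0.12.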

How the data were processed

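Tumors of 1 control and 1 ENZ mouse were profiled by droplet-based single-cell RNA-seq. The deposited values, made by the authors, are unnormalized UMI counts for each gene in every barcode. The files' header names Cell Ranger 7.2.0, while the submitters' processing notes name Cell Ranger 2.1.1 and mm10, and the annotation, and whether intronic reads were counted, are not given in the sources used here. No per-sample columns of other samples were used (0).

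Counts were summed over barcodes with at least 1000 UMIs and at most 20% mitochondrial UMIs. Gates were as follows. Cancer cells had at most 1 Ptprc UMI and at least 5 of Cacna2d1, Rbfox2, Kif21a and Rhox5, and immune gates had at most 2 of the latter. Macrophages had at least 5 UMIs of C1qa, C1qb and C1qc, monocytes at least 3 of Ly6c2 and Chil3, neutrophils at least 2 of Retnlg and Cxcr2 and 10 of S100a8 and S100a9, and T cells at least 2 of Cd3d, Cd3e and Cd3g and 0 of Ncr1. CPM intervals are exact Poisson, ratio intervals are exact conditional binomial (Clopper-Pearson) and shares have Clopper-Pearson intervals. Genes were called past 1.5-fold with at least 50 CPM in either library. The genes named from the wider list were up to 3 highest and 3 lowest called per gate, apart from those said to be named otherwise. The 3 genes most like a member were named for the members with the widest range of levels, and those for Prdx1 are not reported here. The members, lists, gates and tests were chosen with earlier results of these data known.

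Positions are from GENCODE M21 on GRCm38. Python 3.11.15, numpy 2.4.6, scipy 1.17.1, pandas 2.3.3 and matplotlib 3.10.9 were used. The interval calculation was checked on counts simulated under the Poisson model that the intervals assume. There, 95.1% (monocytes) to 95.3% (cancer cells, neutrophils) of intervals held the true ratio. The simulation had no spread among cells or mice, so it checks the calculation and not the coverage in these data. Alternatives changed the UMI and mitochondrial limits, depth range, gate minimums, treatment of several-gate barcodes, scaling, free RNA and CPM minimum.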

Additional observations from a re-analysis of the deposited data

Results flagged for a closer look

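Hmox1 differed between gates in the direction of its ratio of ENZ over control CPM, at 1.385 in macrophages and 0.7293 in cancer cells, with counting intervals on either side of 1. Gclc did so too, at 1.409 in macrophages and 0.867 in cancer cells, and Txnrd1 at 1.295 in monocytes and 0.8308 in macrophages. With barcodes of several gates kept, the log2 ratio of Txnrd1 in macrophages was 0.03 in place of -0.27, so the opposite direction is lost. The differences between gates were not tested, since each rests on 1 library per condition.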

How the results depend on the processing

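No paired analysis was possible because there is only 1 library on each side. Of 648 alternative log2 ratios of the 10 genes under 13 alternatives, 608 moved by less than their counting interval and 40 moved by more. Leaving out the barcodes shared by both libraries was added after the data had been seen. The causes of the moves below were not tested. The shares in parentheses are those of all genes tested that were past 1.5-fold higher and lower under the same setting. The count of the 10 genes past 1.5-fold in cancer cells, 0, was 1 with no CPM minimum, Nqo1, which is lower. In macrophages it was 0, and 1 with several-gate barcodes kept, Gclc (5.90% and 3.30%), or with the mean of each barcode's CPM, Hmox1 (8.71% and 4.51%), both higher. In monocytes it was 1, and 0 with several-gate barcodes kept (5.47% and 3.97%). In neutrophils it was 0, and 1 within 3000 to 15000 UMIs, Hmox1, lower (20.1% and 18.3%), or with a minimum of 20 CPM, Srxn1, higher. It was 2 with several-gate barcodes kept, Hmox1 and Prdx1, lower (7.48% and 8.30%), or with no minimum, Srxn1 and Nqo1, higher. In T cells it was 0, and 1, Prdx1, lower, with gate minimums doubled (6.64% and 4.75%), without the 5% of barcodes with the most UMIs (6.40% and 4.77%), with median-of-ratios scaling (3.33% and 6.22%) and with free RNA subtracted at 5% (5.83% and 4.72%) or 10% (6.37% and 5.53%). It was 2 there with several-gate barcodes kept (5.64% and 6.10%). Of the wider list, the count in cancer cells was 0, 3 within 3000 to 15000 UMIs (1.03% and 1.60%), and 1 with median-of-ratios scaling (0.306% and 1.14%), a minimum of 20 CPM or no minimum. In macrophages it was 5, 3 with several-gate barcodes kept or the mean of CPM, 11 with 20 CPM and 17 with no minimum. In monocytes it was 5, 10 with 20 CPM and 20 with no minimum. In neutrophils it was 3, 12 within 3000 to 15000 UMIs (20.1% and 18.3%), 7 with 20 CPM and 22 with no minimum. In T cells it was 4, 7 with gate minimums doubled, free RNA subtracted at 10% or 20 CPM, and 19 with no minimum. With no minimum the shares of all genes were 7.62% and 12.3% in cancer cells, 23.6% and 12.8% in macrophages, 18.3% and 18.5% in monocytes, 24.0% and 16.7% in neutrophils, and 17.3% and 13.9% in T cells. At 20 CPM they were 0.417% and 0.819%, 13% and 4.15%, 8.56% and 6.51%, 12.5% and 11.1%, and 8.41% and 5.92%, in the same order. Median-of-ratios scaling made them 5.62% and 8.18% in macrophages, and leaving mitochondrial, ribosomal protein and rRNA-like genes out of the total made them 8.88% and 4.49% in monocytes. Depth limits Nqo1 outside cancer cells, at 23 UMIs or fewer per gate and library.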
